A study of Homo sapiens with 6 samples.

Results

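The genes described here are C3, C4A, C4B and CFB, which encode complement component C3, the 2 forms of component C4, and factor B. They were chosen by gene symbol from the annotation of the array's probes, taking for each symbol the probe set with the highest mean, and are 4 of 14884 named genes. The samples were cultures of ARPE-19, an established cell line derived from human retinal pigment epithelium, kept confluent for 4 weeks in 1% serum to differentiate. The tested cultures then spent 2 days in medium without serum containing 250 µM FAC. The labels do not spell FAC out; in studies of iron loading it commonly stands for ferric ammonium citrate, a soluble iron salt. The untreated cultures spent the same 2 days in serum-free medium with vehicle. Each group held 3 biological replicates, and each of the 6 cultures was read on an array of its own. A single cell line stands here for the epithelium, without the photoreceptors and blood supply that adjoin it in the eye.

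Complement is a cascade of plasma and tissue proteins that marks microbes and damaged cells for removal. The classical and lectin pathways cleave C4 and C2 to build an enzyme, the C3 convertase, that cuts C3. In the alternative pathway factor B, bound to cleaved C3 and activated by factor D, forms a second C3 convertase, so that C3 feeds its own cleavage. C3 and C4 are relatives, both carrying an internal thioester through which they bond to surfaces. The liver makes most of the plasma supply, and the retinal pigment epithelium makes some of these proteins locally, where inherited variation in complement genes is linked to age-related macular degeneration. Setting FAC against vehicle shows which of these genes differ after FAC in this cell line.

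C3 was higher by more than 1 log2 unit in the FAC cultures, C4 was higher by about 0.3, and factor B was not distinguishable between the groups. C3, C4A and C4B passed limma's test at an adjusted p under 0.05 and CFB did not. Over all named genes 3.73% passed, 1.88% higher with FAC and 1.85% lower. The 4 genes were picked with earlier results of these data known, so their count cannot be read as an enrichment. C4A and C4B are nearly identical in sequence and are treated below as a single C4 signal, which leaves C3 and C4 as the 2 separate rises.

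C3, on which all complement pathways converge, measured log2 intensities of 8.01, 8.11 and 7.9997 in FAC replicates 1 to 3, against 6.88, 6.89 and 6.97 in untreated replicates 1 to 3. The groups did not overlap, and the lowest FAC array stood 1.03 log2 units above the highest untreated array, while the arrays of a group spanned 0.11 in FAC and 0.09 in untreated cultures. The mean was 8.04 ± 0.06 with FAC and 6.91 ± 0.05 untreated (SD, n = 3 each). The log2 fold change was 1.13 ± 0.06 (SE, limma adjusted p = 0.000362), which is 2.18-fold with a 95% interval from 1.99-fold to 2.39-fold. Set against the mean of the untreated arrays, FAC replicate 1 was 2.14-fold, FAC replicate 2 was 2.29-fold and FAC replicate 3 was 2.12-fold higher. With RNA from whole cultures, more cells expressing C3 and more C3 RNA per cell cannot be told apart.

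C3 changed place among the named genes as well. Counted from the brightest, it ranked 5167, 4969 and 5162 on FAC arrays 1 to 3, against 8310, 8259 and 8039 on untreated arrays 1 to 3. In percentiles of level this put C3 between 65.3 and 66.6 with FAC and between 44.2 and 46.0 untreated. These ranks order probe set intensities, which also depend on the probes, so they describe the place of this probe set and not the abundance of its RNA relative to other genes. Among all 14884 named genes C3 had rank 7 by size of rise and rank 2 by p-value, and 10 genes rose by at least 1 log2 unit.

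**Figure D1:**
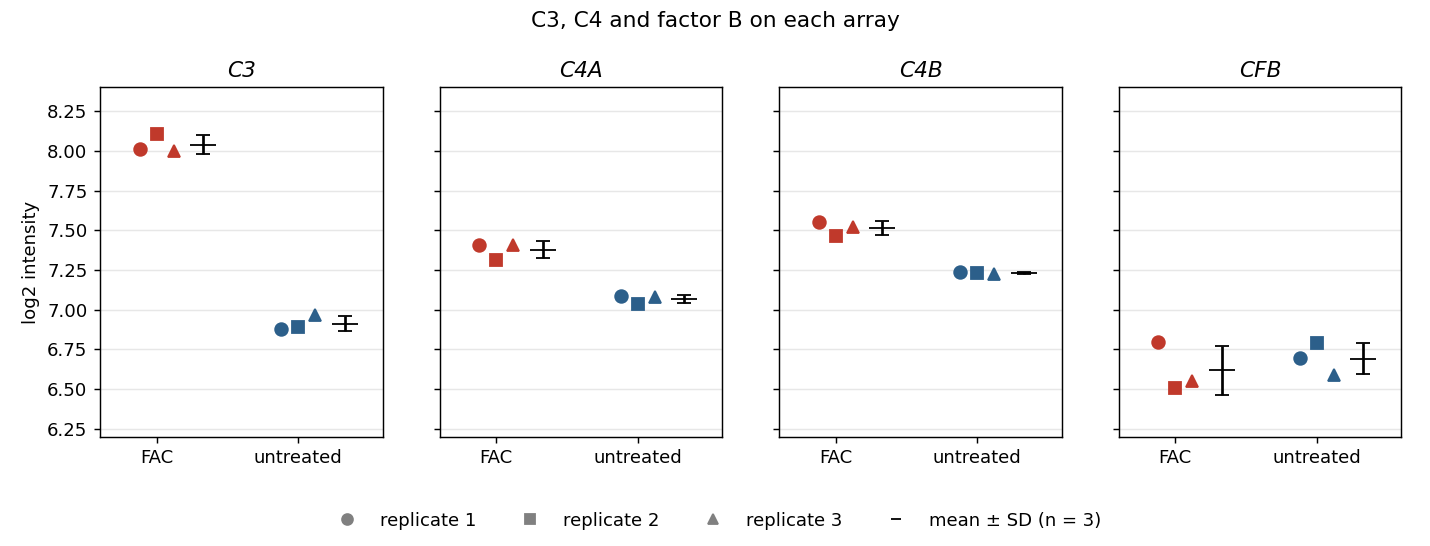
Log2 intensity of C3, C4A, C4B and CFB on each array, with FAC cultures on the left and untreated cultures on the right of each panel. Symbols are replicates and bars are the mean ± SD of 3 arrays. C3 averaged 8.04 with FAC and 6.91 untreated, C4A and C4B were separated by a smaller gap, and the CFB arrays overlapped.

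C4, the component cleaved first to build the classical and lectin convertase, was higher with FAC on every array by a smaller margin. C4A measured 7.41, 7.32 and 7.41 in FAC replicates 1 to 3, against 7.09, 7.04 and 7.08 in untreated replicates 1 to 3. C4B measured 7.55, 7.46 and 7.52 in FAC replicates 1 to 3, against 7.24, 7.23 and 7.23 in untreated replicates 1 to 3. In both the groups did not overlap, with FAC above. This was so for 10.4% of all named genes, and 23.4% were separated in either direction. The gap between the nearest arrays of the 2 groups was 0.23 log2 units for each symbol. FAC replicate 2 was the lowest FAC array of both symbols and the highest FAC array of C3.

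The log2 fold change was 0.31 ± 0.05 for C4A (SE, 1.24-fold, 95% interval 1.14-fold to 1.35-fold, limma adjusted p = 0.0242) and 0.28 ± 0.05 for C4B (1.21-fold, 95% interval 1.12-fold to 1.32-fold, limma adjusted p = 0.0282). By size of rise they ranked 394 and 493 among all named genes. These calls rest on all 6 arrays. Leaving out any one array gave limma adjusted p-values from 0.0518 to 0.108 for C4A and from 0.0623 to 0.125 for C4B, with changes between 0.29 and 0.34 and between 0.26 and 0.30, and testing every probe of the array, named or not, gave 0.09996 and 0.115. The rise of C3 passed under every one of these settings, with adjusted p-values from 4.34e-06 to 0.00601 over 14 alternatives.

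The array carries 7 probe sets annotated to C4, 2 named C4A and 5 named C4B, and they gave nearly the same answer. In all 7 the FAC arrays lay above the untreated arrays, by at least 0.17 log2 units between the nearest arrays. Their log2 fold changes ran from 0.28 to 0.32, a spread of 0.04 that is smaller than the SE of any single one. Fitted over all 16098 named probes, where 3.47% passed, all 7 had limma adjusted p-values between 0.0265 and 0.0399. FAC replicate 2 was the lowest FAC array in 7 of 7 probe sets, and untreated replicate 2 the lowest untreated array in 6 of 7. The sets thus shared their array-to-array scatter as well, and they are not counted as 7 independent tests. Over the 6 arrays the pattern closest to that of C4A among 14883 other named genes was that of C4B. The reverse did not hold, as ITPK1 and PRNP lay closer to C4B than C4A did.

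**Figure D2:**
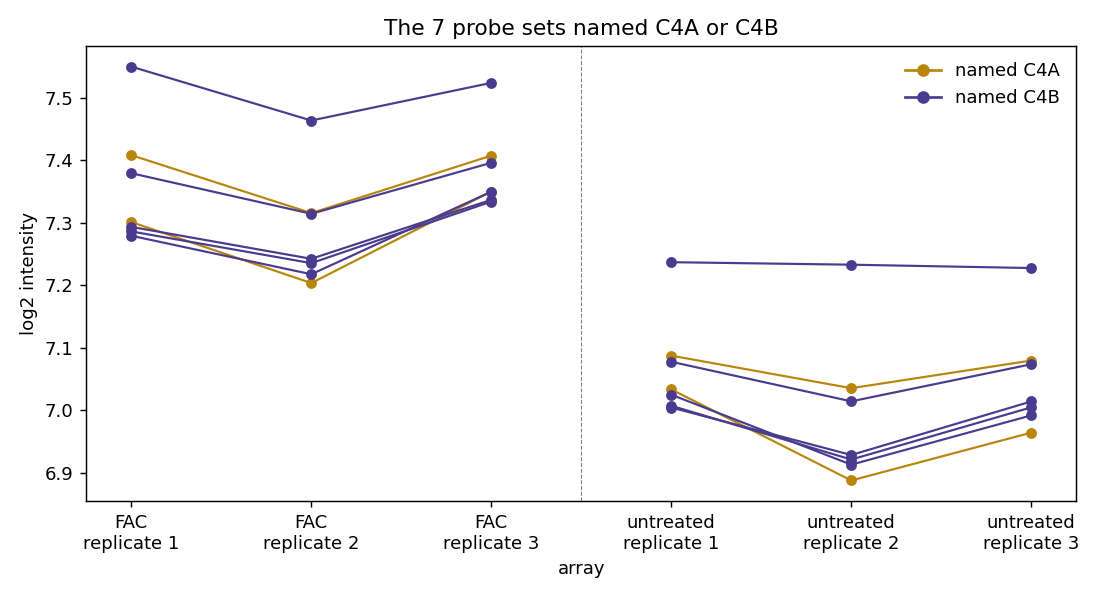
Log2 intensity of the 7 probe sets annotated to C4A or C4B on each of the 6 arrays, with FAC arrays on the left and untreated arrays on the right. Lines join the values of the same probe set within a group and imply no order of the replicates. Every set lay between 7.20 and 7.55 with FAC and between 6.89 and 7.24 untreated, and the sets ran nearly parallel.

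CFB encodes factor B, the serine protease of the alternative pathway convertase and the direct partner of C3. It measured 6.80, 6.50 and 6.55 in FAC replicates 1 to 3, against 6.70, 6.79 and 6.59 in untreated replicates 1 to 3. The groups overlapped, with FAC replicate 1 the highest of all 6 arrays and FAC replicates 2 and 3 the 2 lowest. The mean was 6.62 ± 0.16 with FAC and 6.69 ± 0.10 untreated (SD, n = 3 each), and the log2 fold change of -0.07 ± 0.09 did not pass (limma adjusted p = 0.738). Its 95% interval ran from 0.82-fold to 1.10-fold, so a rise of the size seen for C4 or C3 lies outside it, whereas smaller changes in either direction lie inside. CFB ranked between 8592 and 9404 from the brightest on the FAC arrays and between 8584 and 9108 on the untreated arrays. Its replicates scattered more than those of C3 and C4, spanning 0.29 log2 units with FAC and 0.20 untreated.

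The promoter of CFB is shown from the RefSeq promoter table, to set its letters beside the flat values of this gene. The promoters of C3, C4A and C4B were not searched here. The window spans 250 bases before and 50 after the start site, at chr6:31945845-31946144 on the plus strand of GRCh38.p14. Capitals mark, in order, an ISRE-like motif, a GAS motif and a TATA motif.
CFB promoter: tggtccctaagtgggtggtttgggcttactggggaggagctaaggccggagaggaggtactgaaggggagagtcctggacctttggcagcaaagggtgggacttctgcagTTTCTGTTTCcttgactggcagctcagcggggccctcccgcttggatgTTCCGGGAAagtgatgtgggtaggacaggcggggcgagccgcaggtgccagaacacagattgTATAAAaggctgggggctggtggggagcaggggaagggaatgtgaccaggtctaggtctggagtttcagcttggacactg

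Motifs were searched on both strands, and none of those found overlapped another. The GAS motif, searched as TTCNNNGAA, is the kind of site that STAT dimers bind, and 7.66% of 35116 RefSeq promoter windows of the same length hold it. The ISRE-like motif, added after the sequence had been seen, is the kind that IRF factors bind, and 3.57% of windows hold it. The TATA motif TATAAA occurs in 11.5% of windows. No match was found in this window for C/EBP as TTNNGNAAT, the kappaB motif, AP-1 as TGANTCA, or SMAD as CAGACA. A match describes letters only, and CFB itself did not pass the test.

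The change of C3 exceeded that of C4 on the log2 scale in every comparison of a FAC with an untreated array. The log2 value of C3 minus the mean of C4A and C4B was 0.53, 0.72 and 0.53 on FAC arrays 1 to 3, against -0.28, -0.24 and -0.19 on untreated arrays 1 to 3. The sign of this quantity has no meaning by itself, because it sets different probes against each other. Its shift between groups compares the changes as read by these probe sets. Whether the sets respond alike to a change in RNA was not examined. The shift was 0.83 log2 units (0.60 ± 0.11 with FAC and -0.24 ± 0.05 untreated, SD, n = 3 each), with no overlap. The exact permutation test over arrays gave p = 0.1 (2-sided), the smallest that 3 against 3 arrays allow.

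**Figure D3:**
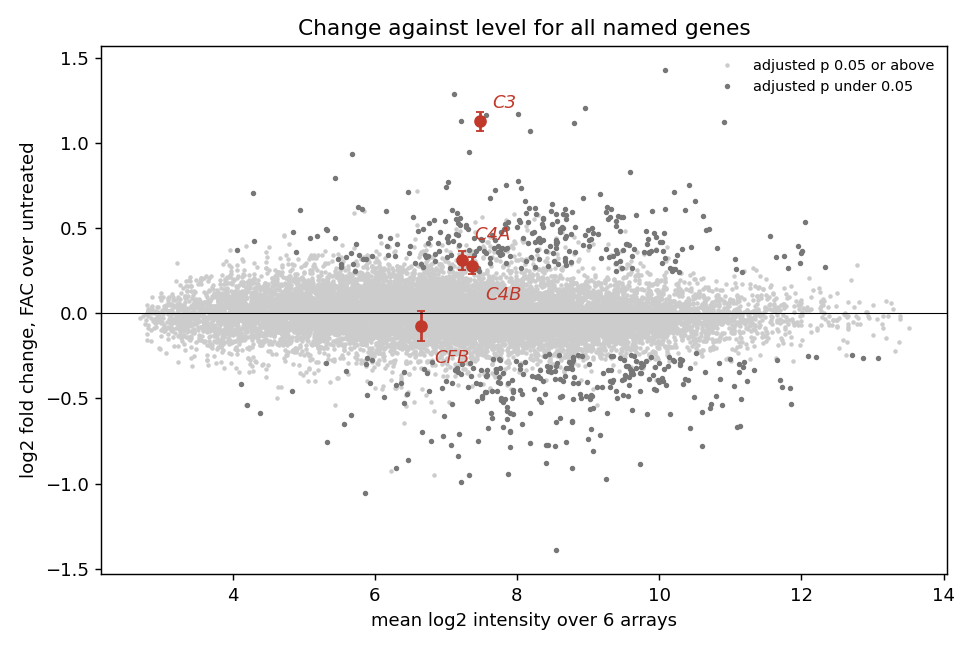
Log2 fold change of FAC over untreated cultures against the mean log2 intensity over 6 arrays for all 14884 named genes, with genes past the adjusted p threshold in dark grey. C3, C4A, C4B and CFB are in red with their SE. C3 (1.13) stands among the few genes that rose by at least 1, C4A (0.31) and C4B (0.28) lie near the edge of the called genes, and CFB (-0.07) lies in the middle of the uncalled ones.

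Genes whose arrays followed a similar course were found by the Euclidean distance between log2 values centred on each gene's own mean, over the 6 arrays and among named genes of at least median level. This is a description of shape and size. The nearest to C3 were TTC9 (distance 0.166, log2 fold change 1.07), the sphingosine-1-phosphate exporter gene SPNS2 (0.178, 1.13) and the acid-sensing ion channel gene ASIC1 (0.202, 1.13). Nearest to C4A were C4B (distance 0.0589), the cell surface proteoglycan gene SDC4 (0.0622, log2 fold change 0.32) and STARD5 (0.0747, 0.27). Nearest to C4B were the inositol phosphate kinase gene ITPK1 (distance 0.0397, log2 fold change 0.27), the prion protein gene PRNP (0.0572, 0.26) and C4A. The nearest to CFB, namely CCDC91 (0.121), TFF3 (0.131) and INIP (0.134), did not pass the test either (limma adjusted p between 0.387 and 0.968), so their likeness to it is one of scatter within the groups.

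The other complement genes were read from lists by role, which named 62 genes, 36 of them with a named probe. Including C3, C4A and C4B, 3 of 36 rose and 1 fell, and the median log2 fold change was 0.04, against -0.0041 over all named genes. Without C3, C4A, C4B and CFB, 1 of 32 passed, and the median was 0.03. That is 3.1%, near the 3.73% of all named genes that passed, against 11.1% with the 4 preselected genes included. At an unadjusted p under 0.05 there were 6 of these 32, a share near the 17.2% of all named genes that reached it.

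In the alternative pathway the other measured genes did not pass. CFD, the protease factor D that cuts factor B, measured between 7.27 and 7.63 with FAC and between 7.55 and 7.74 untreated (-0.20 ± 0.10, SE, adjusted p = 0.335). CFP, encoding properdin, which stabilises the alternative convertase, measured -0.05 ± 0.11 (adjusted p = 0.852). C3 was thus the 1 gene of 4 in this list that passed.

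In the classical and lectin pathways 11 of 18 genes were measured, and C4A and C4B were the 2 that passed, both higher with FAC. C2, which encodes the protease that joins cleaved C4 in the convertase and is the closest relative of factor B, measured between 6.26 and 6.50 with FAC and between 6.24 and 6.35 untreated (0.05 ± 0.07, adjusted p = 0.771). The scavenger receptor collectin gene COLEC12 did not overlap between groups, with 6.94, 6.81 and 6.90 in FAC replicates 1 to 3 against 6.70, 6.44 and 6.58 in untreated replicates 1 to 3, but its change of 0.31 ± 0.08 did not pass (adjusted p = 0.0734). Its estimate is as large as that of C4A, with a wider error, and a separation with FAC above held for 10.4% of all named genes. C1q, C1r and C1s, the proteins that start the classical pathway, were not analysed here.

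Of 4 measured terminal components none passed. C5, the thioester-free relative of C3 that starts membrane attack, measured 7.40, 7.60 and 7.30 in FAC replicates 1 to 3, against 7.26, 7.10 and 7.34 in untreated replicates 1 to 3, and these overlapped (0.20 ± 0.09, adjusted p = 0.318). C7 measured 0.18 ± 0.12 (adjusted p = 0.484). In the list of thioester proteins and their relatives, which includes C3, C4A and C4B, the other 5 measured genes had log2 fold changes between 0.05 and 0.24 and none passed. Among them the protease inhibitor gene A2M measured 0.24 ± 0.07 (adjusted p = 0.124) at percentile 9.96 of level.

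Among 6 measured soluble regulators none passed. CLU, which encodes clusterin, an inhibitor of membrane attack, measured 9.68, 9.71 and 9.65 in FAC replicates 1 to 3, against 9.39, 9.42 and 9.53 in untreated replicates 1 to 3. The groups did not overlap, with FAC above as for 10.4% of all named genes, and the change of 0.23 ± 0.06 did not pass (adjusted p = 0.0798). CFI, encoding the protease factor I that inactivates cleaved C3 and C4, measured -0.05 ± 0.08 (adjusted p = 0.809). CFHR4 measured 0.11 ± 0.07 (adjusted p = 0.497) at percentile 4.3 of level.

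Among 5 measured membrane regulators CSMD1, which encodes a large membrane protein with complement control repeats, fell. It measured 7.53, 7.72 and 7.56 in FAC replicates 1 to 3, against 8.15, 8.16 and 8.26 in untreated replicates 1 to 3 (-0.59 ± 0.07, adjusted p = 0.00661). Its groups were well apart, and no other gene of this list passed. SUSD4, another membrane protein with such repeats, and CSMD3 had all FAC arrays below all untreated arrays, as did 13.0% of all named genes. Neither passed (-0.26 ± 0.06, adjusted p = 0.0606 for SUSD4, and -0.25 ± 0.09, adjusted p = 0.197 for CSMD3). CD46, CD55 and CD59, the widely expressed shields of host cells, were not analysed here. Of 6 measured receptors none passed, and the smallest p-values belonged to C5AR2 (0.10 ± 0.08, adjusted p = 0.579) and CD93 (0.11 ± 0.10, adjusted p = 0.634). C3AR1, the receptor of the C3 fragment C3a, measured 0.02 ± 0.10 (adjusted p = 0.942) at percentile 15.5 of level.

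**Figure D4:**
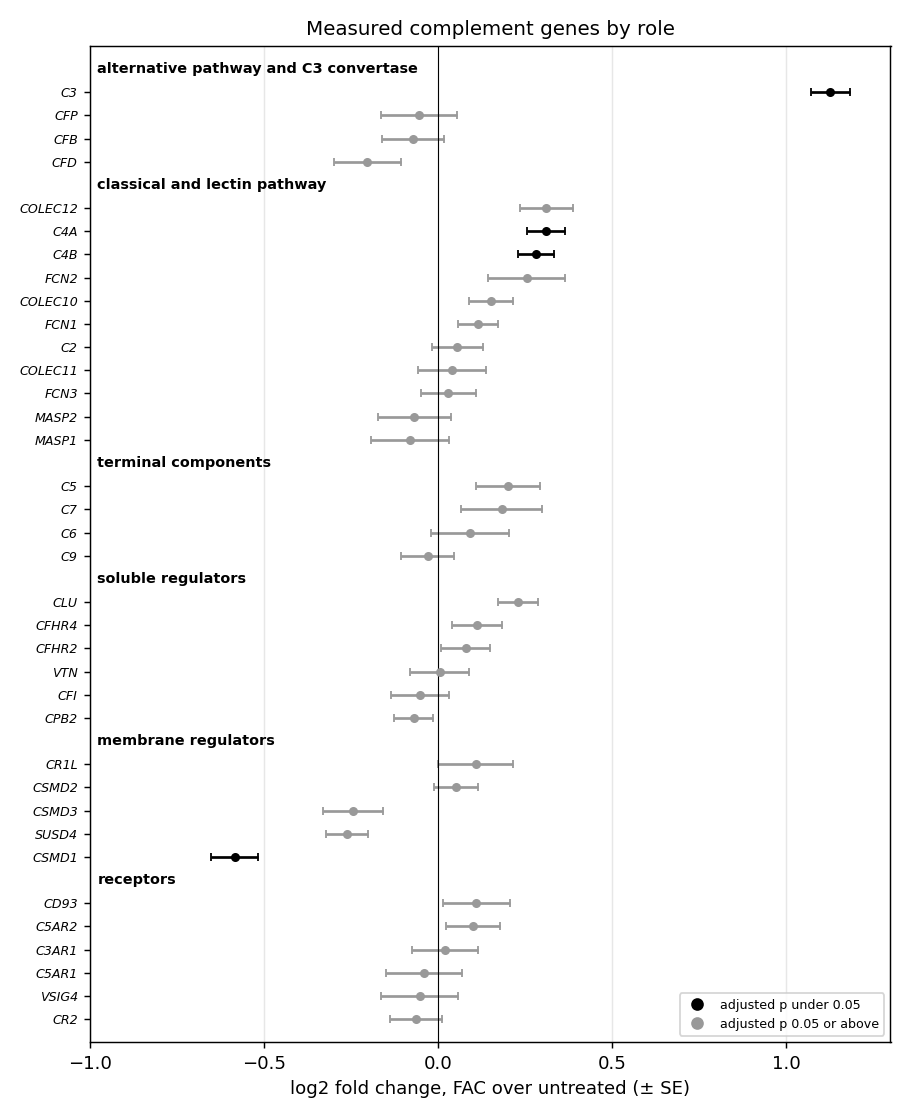
Log2 fold changes of FAC over untreated cultures (± SE) for the 36 measured complement genes, grouped by role and ordered by size within each group. Black points passed an adjusted p of 0.05. C3 rose by 1.13, C4A and C4B by 0.31 and 0.28, CSMD1 fell by 0.59, and the other genes did not pass.

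C4A, C4B, CFB and C2 lie together in the class III region of the major histocompatibility complex on chromosome 6, whereas C3 lies on chromosome 19. In the RefSeq gene table C4A and C4B stand as tandem copies separated by pseudogenes, and CFB follows directly after C2. Of 16 measured genes of this neighbourhood C4A and C4B rose and no other passed, where 3.73% of all named genes did. Leaving out C4A and C4B, the 14 genes had log2 fold changes between -0.07 and 0.13, with a median of 0.0017, and 1 had an unadjusted p under 0.05, which 17.2% of all named genes reached. TNXB, the next measured gene beyond C4B, measured 0.0050 ± 0.06 (adjusted p = 0.974). DXO, the nearest measured gene on the C4A side, measured 0.02 ± 0.06 (adjusted p = 0.915).

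C3 and CFB are known acute-phase genes, switched on by interleukins, tumour necrosis factor and interferon gamma through C/EBP, NF-kappaB, STAT and IRF factors. Of 26 factors listed, 14 were measured and none passed, with a median log2 fold change of 0.03. Over all named genes 3.73% passed, so none among so few does not show that the factors were unchanged. The smallest p belonged to IRF1, an interferon-induced factor, which measured 7.06, 6.88 and 6.80 in FAC replicates 1 to 3, against 6.44, 6.37 and 6.72 in untreated replicates 1 to 3. The groups did not overlap, with FAC above as for 10.4% of all named genes, but untreated replicate 3 came close to the FAC arrays. The change of 0.40 ± 0.10 did not pass (adjusted p = 0.0874). NFKB1, a subunit of NF-kappaB, measured 8.78, 8.80 and 8.74 in FAC replicates 1 to 3, against 8.57, 8.57 and 8.67 in untreated replicates 1 to 3 (0.17 ± 0.06, adjusted p = 0.160). RELA, its partner subunit, had the FAC arrays below the untreated ones, as did 13.0% of all named genes (-0.09 ± 0.05, adjusted p = 0.444). SMAD3, a transducer of TGF-beta signals, measured -0.10 ± 0.06 (adjusted p = 0.394). The C/EBP genes were not analysed here.

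Of 26 inducing cytokines, their receptors and JAK-STAT genes, 15 were measured and none passed, with log2 fold changes between -0.14 and 0.24. With 3.73% of all named genes passing, a list this short could hold none. IL6R, the interleukin 6 receptor gene, had the smallest p (0.24 ± 0.07, adjusted p = 0.127). Its FAC arrays, between 6.55 and 6.75, lay above the untreated ones, between 6.37 and 6.48, as in 10.4% of all named genes. OSMR, the oncostatin M receptor gene, had the FAC arrays below the untreated ones (-0.13 ± 0.06, adjusted p = 0.310), and the interferon gamma receptor gene IFNGR2 likewise (-0.14 ± 0.06, adjusted p = 0.311). Such a separation with FAC below held for 13.0% of all named genes. SOCS3, an early target and brake of STAT3, measured between 6.87 and 6.93 with FAC and between 6.84 and 7.01 untreated (-0.02 ± 0.06, adjusted p = 0.914). Of 22 acute-phase genes 14 were measured and none passed, which is again close to the 3.73% of all named genes. Among these ITIH3 measured 0.23 ± 0.05 (adjusted p = 0.0557) and ORM1 -0.30 ± 0.11 (adjusted p = 0.208). The acute-phase list lay low on these arrays, with 10 of 14 genes in the dimmest 33.3% of named genes, where a change could be missed.

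**Figure D5:**
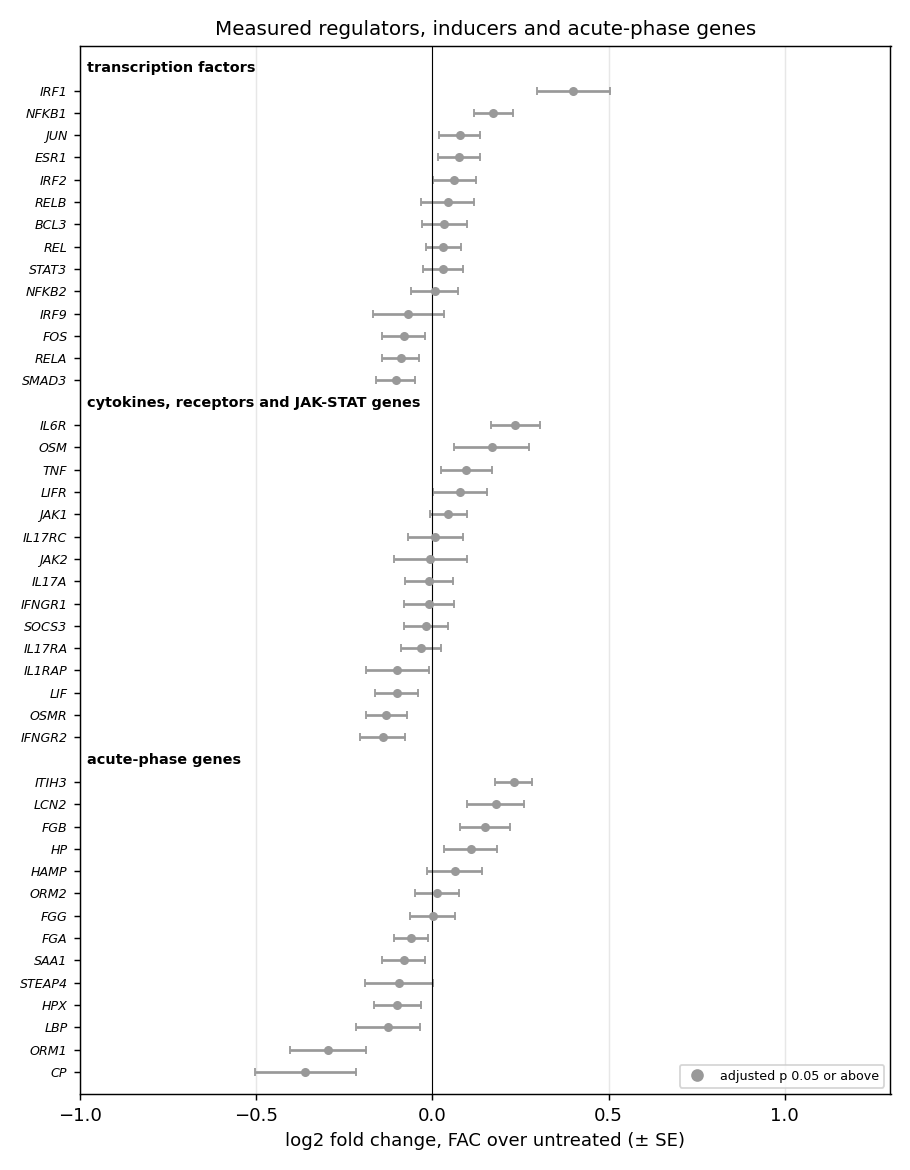
Log2 fold changes of FAC over untreated cultures (± SE) for 14 measured transcription factors, 15 cytokines, receptors and JAK-STAT genes, and 14 acute-phase genes. No gene of the 3 lists passed an adjusted p of 0.05, which the grey points show, and IRF1 (0.40) lies highest.

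Liver cells and macrophages are strong producers of C3, C4 and factor B, so markers of other cell types were read beside these genes. Of 6 measured blood cell markers CSF1R fell (8.03, 8.08 and 8.11 in FAC replicates 1 to 3, against 8.55, 8.30 and 8.49 in untreated replicates 1 to 3, adjusted p = 0.0365) and no other passed. By level the monocyte marker CD14 lay at percentile 17.0 of named genes, the macrophage receptor CD163 at 9.6, lysozyme, LYZ, at 12.03, the adaptor TYROBP at 40.5, CSF1R at 69.4 and CD68, a lysosomal protein, at 98.5. The mean over the 6 markers ran from 6.79 to 6.89 on FAC arrays and from 6.85 to 6.90 on untreated arrays. Of 8 measured endothelial and liver markers none passed, where 3.73% of all named genes did. The smallest p-values were those of KDR (-0.36 ± 0.14, adjusted p = 0.238) and APOB (0.19 ± 0.08, adjusted p = 0.280). By level the endothelial genes PECAM1, VWF and KDR lay at percentiles 14.4, 25.6 and 43.5. The liver genes ALB, AHSG, APOB, TF and APOA1 lay at 13.0, 16.3, 17.7, 23.2 and 42.8. The list's mean ran from 5.70 to 5.80 on FAC arrays and from 5.67 to 5.78 on untreated arrays. The arrays have no true zero and no detection calls, and the part of such cells in the results was not tested.

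Of 15 measured markers of retinal pigment epithelium none passed, where 3.73% of all named genes did. The smallest p-values belonged to the retinoid carrier gene RLBP1 (0.31 ± 0.08, adjusted p = 0.0843) and the pigment cell factor gene MITF (-0.15 ± 0.06, adjusted p = 0.215). By level OTX2 (percentile 97.7), TYRP1 (92.2) and the keratin gene KRT18 (97.5) were bright. The visual cycle and channel genes RPE65 (22.6), LRAT (29.4) and BEST1 (26.5) were dim. Level did not divide the list by role, however. The pigment genes TYR (56.8) and PMEL (48.1) and the keratin gene KRT8 (55.5) lay at middle levels, as did RLBP1 (46.0). RDH11 (79.6) lay higher and CRX (21.1) was dim. Untreated replicate 2 stood low in the pigment genes TYRP1 (9.48 against 10.45 and 10.28 in untreated replicates 1 and 3) and TYR (6.88 against 7.97 and 7.86). PMEL (7.17 against 7.13 and 6.90) and MITF (8.94 against 9.05 and 8.93) did not stand apart there. On that array C3 and C4B lay between the values of the other untreated arrays, C4A was the lowest and CFB the highest. Without it C3 measured 1.12, C4A 0.29 and C4B 0.28 on the log2 fold change scale, with adjusted p-values of 0.00317, 0.0602 and 0.0623. Over all probes the array medians lay between 6.03 and 6.09, and pairs of arrays correlated with Pearson's r between 0.991 and 0.995.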

How the data were processed

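Per the labels' protocols, total RNA from each of 6 ARPE-19 cultures was linearly amplified and end-labelled with biotin for its own array. The authors deposited a table of log2 values for 53617 probes on 6 arrays. The submitters' processing notes name RMA and Partek 6.6 but not what each did, and the genome build and annotation are not given in the sources used here. Values between 2.41 and 14.22 identify the scale as log2. Signal over background and scan batches were not examined, and the number of arrays limits the precision.

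The platform annotation names 16098 probes with 1 gene symbol each and none with several, and the other 37519 are unnamed here. These cover 14884 genes, of which 779 have more than 1 probe, and each of these was read from its probe of highest mean. The test of FAC against untreated cultures was limma's moderated test (lmFit, then eBayes, limma 3.58.1 under R 4.3.3, 2-sided, Benjamini-Hochberg adjustment over all 14884 genes, threshold 0.05), and every adjusted p in the text comes from this fit unless another is named. The difference between C3 and C4 was tested with an exact permutation test.

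C3, C4A, C4B, CFB and the gene lists were chosen with earlier results of these data known. From each list up to 4 genes past the threshold with the largest changes were named, or else the 2 with the smallest p, besides a set of complement and control genes always named. CFP, RELA, IFNGR2, SOCS3, SUSD4, CSMD3, COLEC12, TNXB, DXO, A2M and the cell type markers quoted by level were named outside this rule. They were named after their values were seen, as neighbours or companions of the others. Alternatives were another normalization (quantile or median centring), a filter on dim genes, another variance prior, array weights, averaged probes, every probe tested, a block on the replicate number, and fits without 1 array at a time.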

Additional observations from a re-analysis of the deposited data

How the results depend on the processing

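The rise of C3 and the lack of a call for CFB held under all 14 alternatives run for each, with log2 fold changes from 1.09 to 1.15 for C3 and from -0.16 to -0.02 for CFB. C4A and C4B kept their direction in all 14 and their call in 6 of 14. Leaving out 1 array gave 0.29 to 0.34 for C4A and 0.26 to 0.30 for C4B, and neither passed without any one of the 6. Testing every probe left C4A at 0.31 ± 0.06 (SE, limma adjusted p = 0.09996) and C4B at 0.28 ± 0.06 (0.115). More probes enter the adjustment there, and the SE was larger than the 0.05 of the main fit. Which of these moved the calls was not tested. With the replicate number as a block C4A stayed at 0.31 (adjusted p = 0.0730) and C4B at 0.28 (0.0980), and residual degrees of freedom are fewer. Whether the same numbers paired the cultures was not settled here. Deviations of same-numbered arrays from their group means correlated at -0.02, -0.03 and -0.15. Those of differently numbered arrays correlated between -0.10 and 0.13, a similar size, so these values cannot decide it. The 4 complement genes past the threshold became 7 without the dimmest genes (COLEC12, CLU and SUSD4 joined), and 2, namely C3 and CSMD1, with every probe tested, with the block, and without any 1 array. The 555 genes called over the whole table became 840 without the dimmest genes and 1026 with an intensity trend and robust prior. They became 184 with the block and 147 to 447 without 1 array. With every probe tested, 254 of 53617 probes passed, named and unnamed, which is a count of probes and not of genes. The cause of the changed counts was not tested otherwise. The shift of C3 relative to C4 ranged from 0.77 to 0.86 over 8 alternatives.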
